A study of Rattus norvegicus with 44 samples.

Results

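Klotho, the 4 fibroblast growth factor (FGF) receptors and the parathyroid hormone (PTH) receptor were followed in kidney RNA of male obese ZSF1 rats. The 6 genes, Kl, Fgfr1, Fgfr2, Fgfr3, Fgfr4 and Pth1r, were picked by symbol among the 32883 entries of the deposited table, each on 1 entry, and all 6 were among the 13482 genes that passed the filter on low values (FPKM above 1 in at least 9 animals). FPKM, the authors' unit, scales fragments by transcript length and by the mapped total. The groups, with daily doses in mg/kg, were Combination (12 animals, 3 of Enalapril and 1 of Compound 1), Compound 1 alone (12 animals, 1 at first, then raised to 3), Enalapril alone (9 animals, 3) and Vehicle (11 animals, no drug). Enalapril is an inhibitor of angiotensin-converting enzyme, and Compound 1 stimulates soluble guanylate cyclase, the nitric oxide receptor that makes cGMP. All 44 rats, Vehicle included, were males of an obese strain with metabolic syndrome and hypertension. The study used the strain as a model of diabetic nephropathy, with hyperglycemia, proteinuria and renal lesions. Each rat carried a telemetry implant and gave 1 library. Treatment, in feed, lasted 6 months from 22 weeks of age. Lean animals are not analysed here, and the final dose of Compound 1 was not the same in the 2 groups that received it.

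Klotho is a membrane protein of the distal and proximal tubule that joins FGF receptors to make a high-affinity receptor for FGF23, a hormone from bone. In the proximal tubule FGF23 and PTH both lower phosphate reabsorption, and they act in opposite directions on vitamin D: PTH favours its activation by CYP27B1, whereas FGF23 represses that enzyme and favours its breakdown by CYP24A1. Loss of renal klotho is a well-known feature of chronic kidney disease, and FGF receptor 2 and FGF receptor 3 are also known in stromal and epithelial cells outside this hormone axis.

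The libraries expressed markers of every nephron segment, with 12 of 12 proximal tubule markers detected, and Gcm2 and Pth, which mark the parathyroid gland, had a median of 0. Skeletal muscle genes were in the same list of markers that should be absent, and they were detected. The median sum of that list was 1.25 FPKM in Combination, 1.31 in Compound 1, 0.614 in Enalapril and 0.501 in Vehicle. Its highest sum was 22.6 FPKM, in a Combination animal. Depth relative to the median library, read from the steps of low values, ranged from 0.622 to 1.44, and absolute depth is unknown. The median relative depth was 1.03 in Combination, 0.999 in Compound 1, 1.14 in Enalapril and 0.881 in Vehicle. The part of this difference in the results below was not tested. The median log2 fold change of all tested genes was not 0: it was -0.18 for Combination, -0.07 for Compound 1 and -0.15 for Enalapril, each against Vehicle, and rescaling by median-of-ratios factors moved it to within 0.01 of 0. Both scales are therefore given below for the 6 genes against Vehicle and for some other genes. Counts and medians of gene lists are on the deposited scale unless stated. Mitochondrially encoded genes took a mean of 32.1% of all FPKM in Combination, 30.2% in Compound 1, 32.8% in Enalapril and 27.5% in Vehicle, and their part in the results below was not tested. Marker sums also varied by group. The median sum of the 12 proximal tubule markers was 2837 FPKM in Combination, 2253 in Compound 1, 2805 in Enalapril and 2392 in Vehicle, that of 8 fibroblast and mural markers was 318 in Combination, 442 in Compound 1, 292 in Enalapril and 430 in Vehicle, and that of 6 immune markers was 78.8, 115, 84.9 and 119.9 FPKM in the same order of groups. In bulk tissue, fewer cells of a type and less RNA per cell cannot be told apart.

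Pth1r, the receptor of PTH and of PTH-related peptide, was the most abundant of the 6 transcripts, with a mean of 125 FPKM over the 44 kidneys, more than 95.2% of tested genes. Fgfr1 followed with 40.6 FPKM, Fgfr4 with 25.2, Kl with 23.2, Fgfr3 with 11.3 and Fgfr2 with 4.05. The ranges of Pth1r and Fgfr1 did not overlap, nor did those of Fgfr3 and Fgfr2. Fgfr4 and Kl were neighbours within their spread: Fgfr4 was above Kl in 25 of 44 animals. Kl was above Fgfr3 in 41 of 44.

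Among the receptors themselves the order Fgfr1, Fgfr4, Fgfr3, Fgfr2 held in 44 of 44 animals. Fgfr1, the receptor most often paired with klotho, made up 51.4 ± 2.72% of the summed FPKM of the 4 receptors in Combination, 50.6 ± 3.37% in Compound 1, 49.9 ± 3.21% in Enalapril and 48.9 ± 3.26% in Vehicle (mean ± SD). Fgfr4, the other main receptor of the proximal tubule, made up 32.3 ± 1.53%, 28.1 ± 2.56%, 33.6 ± 2.32% and 31.0 ± 1.68% in the same order. Fgfr3 and Fgfr2 shared the remainder, with Fgfr2 at 4.34 ± 0.398% in Combination, 5.64 ± 0.777% in Compound 1, 4.31 ± 0.574% in Enalapril and 5.45 ± 1.00% in Vehicle. The sum of the 4 receptors was 79.4 ± 10.4 FPKM in Combination, 80.9 ± 9.10 in Compound 1, 77.7 ± 8.71 in Enalapril and 86.2 ± 6.35 in Vehicle.

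**Figure D1:**
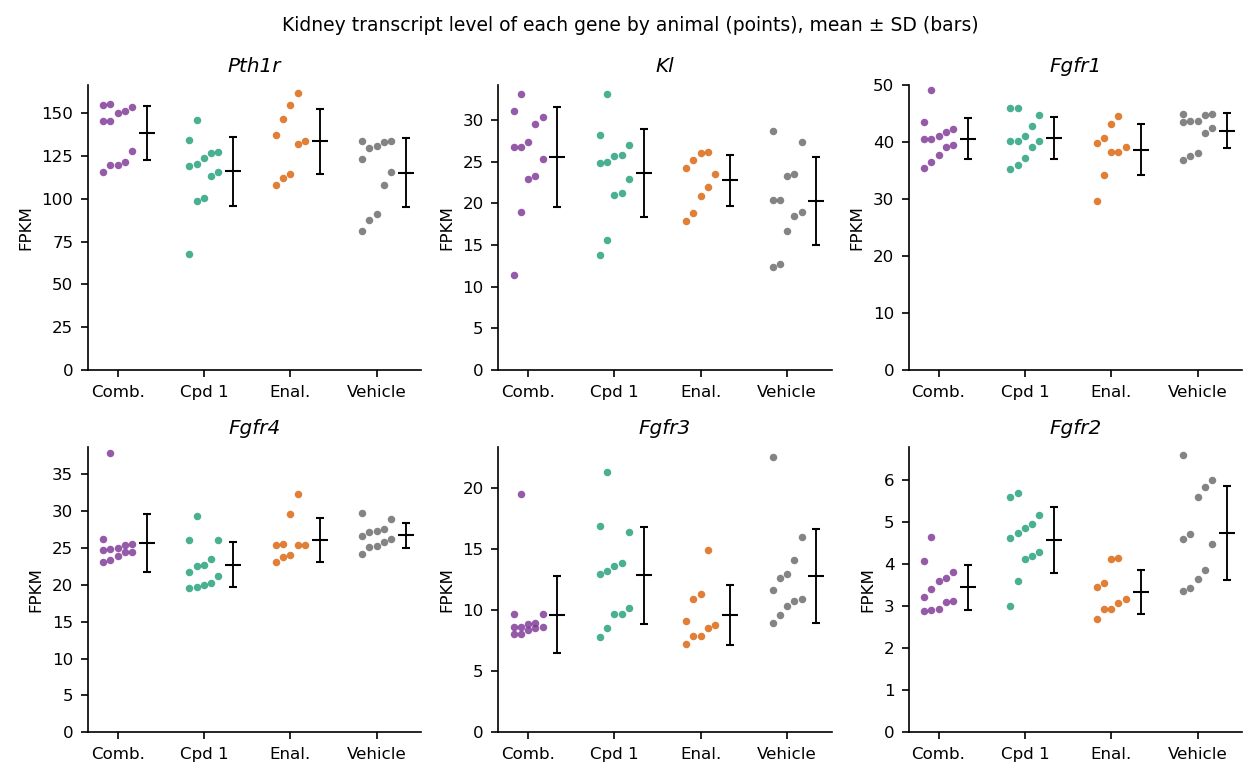
FPKM of each gene (vertical axes, starting at 0) in every animal (points), with mean ± SD beside them, in Combination (Comb.), Compound 1 (Cpd 1), Enalapril (Enal.) and Vehicle. The groups overlap for every gene. Combination animal 4002 stands apart at 19.5 FPKM of Fgfr3 and 37.7 FPKM of Fgfr4.

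The sequence before the annotated start was taken from RefSeq (build GRCr8, not the rn6 build of the expression table) for 5 of the 6 genes, Fgfr1 not among them. It is printed for klotho (Kl), the coreceptor, and for the 3 receptors that passed the adjusted p in a comparison against Vehicle (Pth1r, Fgfr2, Fgfr3). Each line holds the 250 bases upstream of the start, 5′ to 3′ on the strand of the gene. Capitals mark GC boxes, GGGCGG or its complement CCGCCC, the letters bound by Sp-family factors.
Kl: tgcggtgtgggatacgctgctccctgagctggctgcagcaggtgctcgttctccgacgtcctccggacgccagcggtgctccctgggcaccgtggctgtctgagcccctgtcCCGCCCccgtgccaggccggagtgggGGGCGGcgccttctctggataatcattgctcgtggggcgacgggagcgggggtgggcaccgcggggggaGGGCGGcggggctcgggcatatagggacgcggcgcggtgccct
Pth1r: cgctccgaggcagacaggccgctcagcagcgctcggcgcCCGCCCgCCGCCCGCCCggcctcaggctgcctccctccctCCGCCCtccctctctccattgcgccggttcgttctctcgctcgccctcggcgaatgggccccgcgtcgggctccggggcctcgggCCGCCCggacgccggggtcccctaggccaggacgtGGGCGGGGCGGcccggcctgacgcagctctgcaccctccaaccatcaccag
Fgfr2: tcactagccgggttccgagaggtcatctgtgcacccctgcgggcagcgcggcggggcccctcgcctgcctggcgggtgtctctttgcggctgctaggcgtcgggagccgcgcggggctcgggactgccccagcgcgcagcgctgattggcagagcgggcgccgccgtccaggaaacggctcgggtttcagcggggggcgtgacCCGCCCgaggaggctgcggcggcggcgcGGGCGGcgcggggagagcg
Fgfr3: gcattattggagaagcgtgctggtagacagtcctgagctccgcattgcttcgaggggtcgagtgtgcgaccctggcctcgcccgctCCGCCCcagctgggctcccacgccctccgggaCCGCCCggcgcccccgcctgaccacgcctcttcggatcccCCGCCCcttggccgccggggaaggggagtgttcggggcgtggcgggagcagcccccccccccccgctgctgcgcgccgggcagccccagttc
The Kl window lies on chromosome 12, from 5325753 to 5326002 on the plus strand, and the other 3 on minus strands: Pth1r on chromosome 8 from 119595572 to 119595821, Fgfr2 on chromosome 1 from 194280915 to 194281164, and Fgfr3 on chromosome 14 from 81227210 to 81227459. All are GC-rich, with 73.2% G and C for Kl, 77.6% for Pth1r, 76.8% for Fgfr2 and 74.4% for Fgfr3, more than in 95.1% to 98% of the 33469 windows in the reference. GC boxes, counted on both strands and with overlaps allowed, numbered 3 in Kl, 7 in Pth1r, 2 in Fgfr2 and 3 in Fgfr3, and 30.5% of all windows held at least 1. The letters TATAAA, present in 12.9% of all windows, were in none of the 4. A CCAAT box (34% of windows) stood in Fgfr2 and Fgfr3, and the nuclear receptor half-site AGGTCA (14.1% of windows) stood in Fgfr2. GC boxes are thus common to all 4 windows, and a CCAAT box is in those of Fgfr2 and Fgfr3 and not in those of Kl and Pth1r. The Fgfr4 window, not printed, was less GC-rich, with 62.8% G and C, more than in 80.6% of windows. It held 2 GC boxes and 1 half-site AGGTCA, and neither a CCAAT box nor TATAAA.

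None of the 6 genes was called in any comparison against Vehicle, where a call needed an adjusted p under 0.05 (limma on log2(FPKM + 0.1), Benjamini-Hochberg over 13482 genes) and a fold change above 1.5 or under 0.66. With Combination, 0.994% of tested genes were called higher and 6.39% lower; with Compound 1, 0.0445% and 0.156%; with Enalapril, 0.49% and 4.04%. By the adjusted p alone, 3 of the 6 genes passed with Combination (Pth1r higher, Fgfr2 and Fgfr3 lower), against a background of 6.38% of tested genes higher and 39.3% lower. None passed with Compound 1, where 0.134% of genes were higher and 0.341% lower. With Enalapril, 2 passed (Fgfr2 and Fgfr3, both lower), where 3.57% were higher and 26.6% lower. A share of lower genes this large is the background against which Fgfr2 and Fgfr3 stand. No member had groups without overlap in any pair of groups. Among all tested genes, groups did not overlap for 0.341% higher and 0.66% lower with Combination, 0.00742% and 0.0297% with Compound 1, and 0.0668% and 0.86% with Enalapril. The 3 comparisons share the 11 Vehicle animals.

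Kl was higher in every treated group than in Vehicle, by amounts that did not pass the test. It ranged from 11.4 to 33.2 FPKM in Combination (median 26.8), from 13.8 to 33.1 in Compound 1 (median 24.95), from 17.9 to 26.2 in Enalapril (median 23.6) and from 12.3 to 28.7 in Vehicle (median 20.4). The groups overlapped throughout, and 10 of 12 Combination, 10 of 12 Compound 1 and 7 of 9 Enalapril animals lay above the Vehicle median. The log2 fold change against Vehicle was 0.34 ± 0.16 (SE) for Combination (adjusted p = 0.0777), 0.24 ± 0.14 for Compound 1 (adjusted p = 0.470) and 0.20 ± 0.13 for Enalapril (adjusted p = 0.249). These were above those of 95.4%, 96.5% and 92.9% of tested genes. Relative to the shift of all genes, after median-of-ratios scaling, they were 0.51 (adjusted p = 0.00924), 0.31 (adjusted p = 0.471) and 0.36 (adjusted p = 0.0503), still under the fold threshold. With the proximal tubule marker mean as a covariate Kl was at -0.02 with Combination (adjusted p = 0.944) and -0.11 with Enalapril (adjusted p = 0.752). That covariate also changed the calls over all tested genes. They went from 134 higher and 861 lower to 25 and 254 with Combination, and from 66 and 545 to 1 and 0 with Enalapril. With Compound 1 they went from 6 and 21 to 15 and 32. A loss of the adjusted p under this covariate is thus not particular to the genes named here. On the deposited scale the Kl value of Combination moved under 0.05 in 3 of the 23 fits that left out 1 animal: it was 0.44 without Combination animal 4007, the lowest at 11.4 FPKM (adjusted p = 0.00822), 0.39 without Vehicle animal 1010 (adjusted p = 0.0423) and 0.38 without Vehicle animal 1012 (adjusted p = 0.0481).

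Pth1r was higher with Combination by the adjusted p and did not pass with Enalapril or Compound 1. It ranged from 116 to 155 FPKM in Combination (median 145), from 68.0 to 146 in Compound 1 (median 119.6), from 108 to 162 in Enalapril (median 134) and from 81.0 to 134 in Vehicle (median 123). No Combination animal was below 115.8 FPKM, whereas Vehicle held animals 1003, 1004 and 1006 at or under 90.9 FPKM; the groups overlapped. Against Vehicle, the log2 fold change was 0.28 ± 0.09 (SE) for Combination (fold 1.21, adjusted p = 0.0136), 0.01 ± 0.11 for Compound 1 (adjusted p = 0.974, 95% interval from -0.21 to 0.23) and 0.22 ± 0.10 for Enalapril (adjusted p = 0.104). After median-of-ratios scaling these were 0.45 (adjusted p = 0.00136), 0.08 (adjusted p = 0.862) and 0.37 (adjusted p = 0.0191). Without Vehicle animals 1003 and 1004, left out after their low Pth1r was seen, the Combination value was 0.18 (adjusted p = 0.0525). Proximal tubule markers moved with Pth1r, and with their mean as a covariate its log2 fold change was -0.03 for Combination (adjusted p = 0.768) and -0.19 for Enalapril (adjusted p = 0.220). That mean was itself higher in both groups (6.855 and 6.869 on the log2 scale, against 6.58 in Vehicle). It followed Pth1r within groups (r = 0.89), so this fit cannot tell a change of the receptor from one of the markers.

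Fgfr2 and Fgfr3 were lower with Combination and with Enalapril, and close to Vehicle with Compound 1. Fgfr2, whose epithelial isoform binds FGF7 and FGF10, ranged from 2.88 to 4.64 FPKM in Combination (median 3.32), from 2.99 to 5.68 in Compound 1 (median 4.67), from 2.69 to 4.14 in Enalapril (median 3.16) and from 3.35 to 6.59 in Vehicle (median 4.59). No Enalapril animal and 1 of 12 Combination animals exceeded the Vehicle median, although the ranges overlapped. The log2 fold change was -0.43 ± 0.11 (SE) for Combination (fold 0.744, adjusted p = 0.00451), -0.04 ± 0.12 for Compound 1 (adjusted p = 0.916, 95% interval from -0.29 to 0.21) and -0.47 ± 0.13 for Enalapril (fold 0.722, adjusted p = 0.00858). Relative to the all-gene shift they were -0.26 for Combination (adjusted p = 0.0319) and -0.32 for Enalapril (adjusted p = 0.0363). The adjusted p stayed under 0.05 for both in every fit that left out 1 animal, and it did not under quantile normalization (0.0919 for Combination, 0.0687 for Enalapril). Fibroblast and immune markers were lower in the same groups, and their part in the Fgfr2 result was not tested; with the proximal tubule covariate Fgfr2 was at -0.21 with Combination (adjusted p = 0.278) and -0.17 with Enalapril (adjusted p = 0.573).

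Fgfr3, a receptor best known for its part in bone growth, ranged from 8.05 to 19.5 FPKM in Combination (median 8.62), from 7.79 to 21.4 in Compound 1 (median 13.1), from 7.21 to 14.96 in Enalapril (median 8.76) and from 8.996 to 22.6 in Vehicle (median 11.6). The highest animals were 4002 in Combination, 3105 in Compound 1 (next 16.9 FPKM), 2010 in Enalapril (next 11.3) and 1004 in Vehicle (next 16.02). The other 11 Combination animals lay between 8.05 and 9.70 FPKM. The log2 fold change was -0.40 ± 0.14 (SE) for Combination (fold 0.757, adjusted p = 0.0213), -0.00 ± 0.16 for Compound 1 (adjusted p = 0.996, 95% interval from -0.33 to 0.32) and -0.39 ± 0.15 for Enalapril (fold 0.761, adjusted p = 0.0451). After median-of-ratios scaling the adjusted p was 0.175 for Combination and 0.250 for Enalapril. On the deposited scale the Enalapril value lost its side of the threshold (adjusted p above 0.05) in 11 of the 20 fits that left out 1 animal. With the proximal tubule marker mean as a covariate the values were -0.03 for Combination (adjusted p = 0.912) and 0.01 for Enalapril (adjusted p = 0.9754).

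Fgfr4 passed the test against Vehicle in no group, and its lowest value was with Compound 1. FGFR4, the receptor of the bile acid axis in liver and one of the klotho partners in the proximal tubule, had a transcript range of 23.0 to 37.7 FPKM in Combination (median 24.7), 19.55 to 29.3 in Compound 1 (median 22.1), 23.1 to 32.3 in Enalapril (median 25.4) and 24.1 to 29.7 in Vehicle (median 26.6). Only 1 of 12 Compound 1 animals, 3105, exceeded the Vehicle median. The log2 fold change was -0.06 ± 0.06 (SE) for Combination (adjusted p = 0.417), -0.24 ± 0.06 for Compound 1 (adjusted p = 0.0934) and -0.04 ± 0.06 for Enalapril (adjusted p = 0.628). In Compound 1 it ranked 118 of 13482 genes by p, and without animal 3105 it was -0.27 (adjusted p = 0.0140). Relative to the shift of all genes the Compound 1 value was -0.17 (adjusted p = 0.321), and with the proximal tubule covariate it was -0.24 (adjusted p = 0.0431). Without animal 4002 the Combination value was -0.12 (adjusted p = 0.0213), and after median-of-ratios scaling it was 0.11 (adjusted p = 0.146).

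Fgfr1, the most abundant FGF receptor, passed no test on the deposited scale. It ranged from 35.5 to 49.2 FPKM in Combination (median 40.6), from 35.3 to 46.1 in Compound 1 (median 40.3), from 29.7 to 44.7 in Enalapril (median 39.2) and from 36.9 to 45.0 in Vehicle (median 43.5), so that its SD was 8.77%, 8.92%, 11.7% and 7.30% of the mean. The log2 fold change was -0.05 ± 0.05 (SE) for Combination (adjusted p = 0.447), -0.05 ± 0.05 for Compound 1 (adjusted p = 0.715) and -0.12 ± 0.07 for Enalapril (adjusted p = 0.153). After median-of-ratios scaling the sign turned, to 0.12 for Combination (adjusted p = 0.0200), 0.03 for Compound 1 (adjusted p = 0.867) and 0.03 for Enalapril (adjusted p = 0.764).

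**Figure D2:**
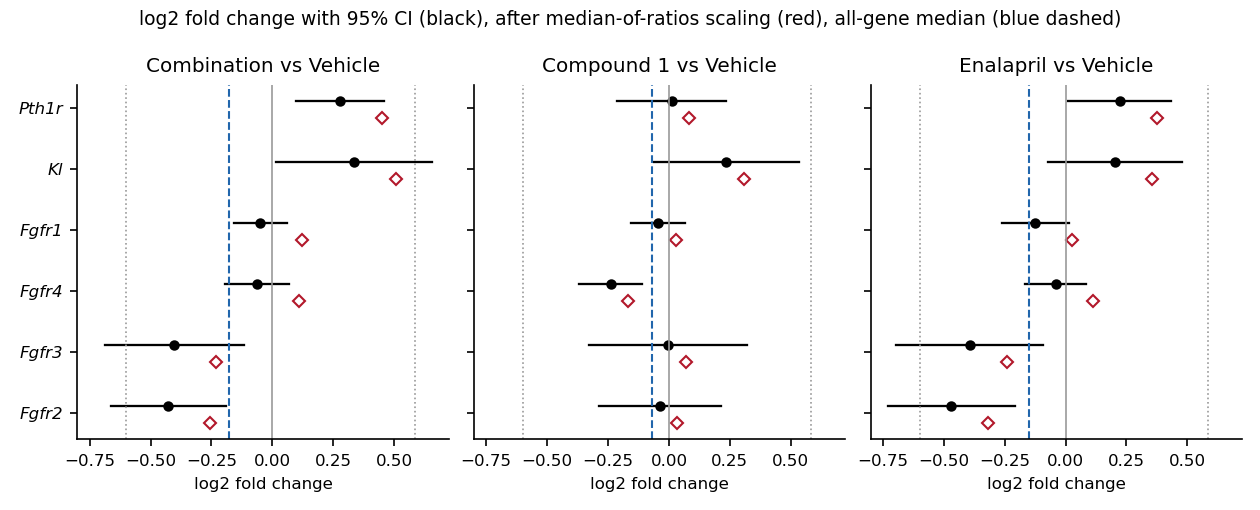
log2 fold change of each gene against Vehicle (horizontal axis) for Combination, Compound 1 and Enalapril, with 95% confidence intervals (black lines), the value after median-of-ratios scaling (red diamonds), the median of all tested genes (blue dashed lines) and the fold thresholds of 1.5 and 0.66 (dotted lines). No black point reaches a dotted line. Pth1r and Kl lie on the right and Fgfr3 and Fgfr2 on the left in Combination and Enalapril, and Fgfr4 lies at -0.24 in Compound 1.

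The treatments were also compared with each other in 1 fit of all 4 groups. Between Combination and Enalapril, which differ by the addition of Compound 1, the 6 log2 fold changes ran from -0.02 to 0.13 and none passed (0.00742% of tested genes called lower and 0% higher; by the adjusted p alone 0.0223% higher and 0.0297% lower; groups without overlap 0.0148% higher and 0% lower). Between Combination and Compound 1, which differ by Enalapril and by the final dose of Compound 1, none was called (0.274% of genes called higher, 2.05% lower), and 4 of 6 passed the adjusted p alone, where 4.72% of genes were higher and 17.4% lower. These were Fgfr2 at -0.39 ± 0.11 (adjusted p = 0.0082), Fgfr3 at -0.40 ± 0.15 (adjusted p = 0.0447), Fgfr4 at 0.18 ± 0.07 (adjusted p = 0.0490) and Pth1r at 0.27 ± 0.09 (adjusted p = 0.0368). After median-of-ratios scaling Fgfr3 no longer passed (-0.30, adjusted p = 0.102), while Fgfr2 was at -0.29 (adjusted p = 0.0105), Fgfr4 at 0.27 (adjusted p = 0.0019) and Pth1r at 0.37 (adjusted p = 0.0118). All 12 Combination animals had more Fgfr4 than the Compound 1 median, and none had more Fgfr2, yet the ranges overlapped (no overlap for 0.00742% of genes higher and 0% lower). Fgfr2 held its side in all 24 fits without 1 animal, whereas Fgfr3 lost it in 17, Fgfr4 in 15 and Pth1r in 10.

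Enalapril against Compound 1 gave no call (0.326% of genes called higher, 1.89% lower). Fgfr2 was at -0.43 ± 0.11 (adjusted p = 0.00945), the 1 member under 0.05, where 2.6% of genes were higher and 10.9% lower by the adjusted p alone; groups did not overlap for 0.0297% of genes higher and 0.148% lower. Fgfr4 was at 0.20 ± 0.07 (adjusted p = 0.0541), with 9 of 9 Enalapril animals above the Compound 1 median, and passed after median-of-ratios scaling at 0.28 (adjusted p = 0.00428). Fgfr3 was at -0.39 ± 0.16 (adjusted p = 0.0932) and Pth1r at 0.21 ± 0.10 (adjusted p = 0.168). The interaction, which asks whether the joint effect differed from the sum of the single effects on the log2 scale, called none of the 6 (0.00742% of genes called higher, 0% lower). Its largest value among them was that of Fgfr4, 0.22 ± 0.10 (adjusted p = 0.986).

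Across the 44 animals, after the group means were subtracted, some of the 6 genes varied together. Fgfr2 and Fgfr3 varied together (Pearson r = 0.67), as did Fgfr3 and Fgfr4 (0.65) and Kl and Pth1r (0.55), whereas Fgfr3 and Pth1r had a negative r (-0.52). By ranks (Spearman rho) these were 0.66, 0.44, 0.50 and -0.51. For Fgfr3 and Fgfr4, r ran from 0.32 to 0.91 in the single groups, and animal 4002 was the highest of Combination in both genes. Such values share library scaling and tissue makeup. Pth1r followed the mean of the proximal tubule markers with r = 0.89, the closest of any gene and marker list here. Fgfr3 went against the same mean (r = -0.62), and Fgfr2 followed the fibroblast and mural (0.72) and immune (0.73) marker means. By Pearson r, Kl was closest to the thick ascending limb mean (0.73) and Fgfr1 to the endothelial mean (0.68). By ranks, Kl was as close to the podocyte mean (rho 0.52) as to the thick ascending limb mean (0.51). Fgfr4 reached no more than 0.42 with any of the lists.

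**Figure D3:**
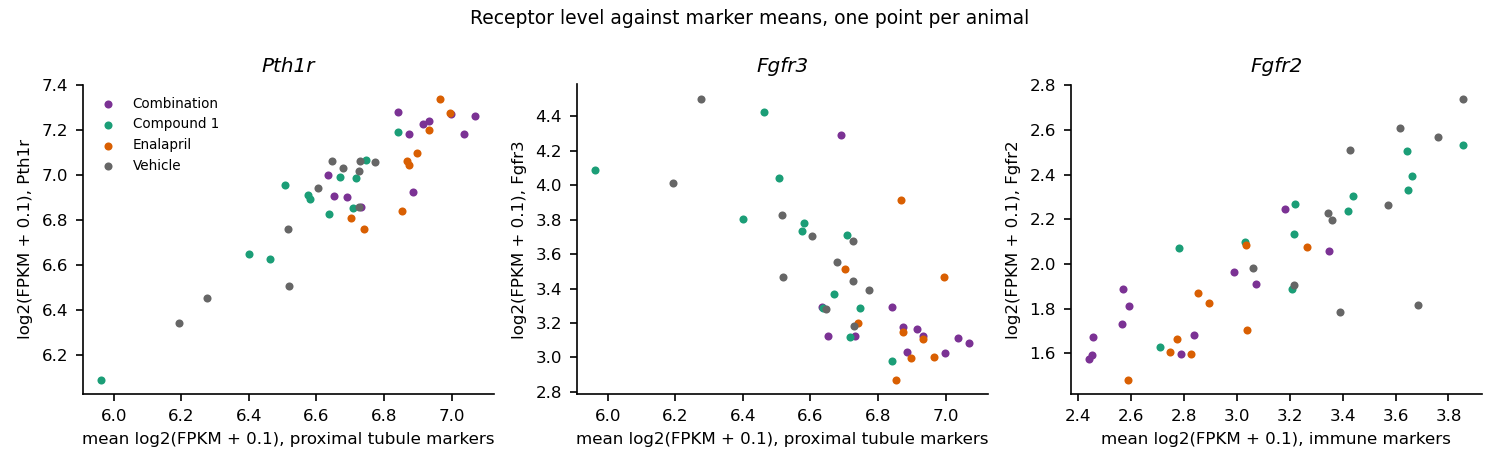
log2(FPKM + 0.1) of Pth1r, Fgfr3 and Fgfr2 (vertical axes) against the mean log2 level of proximal tubule or immune markers (horizontal axes), with 1 point per animal colored by group. Pth1r climbs and Fgfr3 declines along the proximal tubule mean, and Fgfr2 climbs along the immune mean, with within-group r of 0.89, -0.62 and 0.73.

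For each gene, the transcripts most like it over the 44 animals were found by the same within-group Pearson r. Kl was most like Nnt, the mitochondrial transhydrogenase (r = 0.92), then Vdac1, a pore of the outer mitochondrial membrane (0.89), Thrb, a thyroid hormone receptor (0.88), Aif1l (0.88) and Man2a1, a Golgi mannosidase (0.87). Fgfr3 was most like Pelp1, a nuclear receptor coregulator (0.95), Kmt2b, a histone methyltransferase (0.93), Dgkz (0.93), Lama5, a laminin chain (0.93), and Ciz1 (0.92). Pth1r was most like Slc16a13 (0.88), Gde1 (0.88), the protease gene Prss8 (0.88), the organic anion transporter Slc22a8 (0.88), itself one of the proximal tubule markers, and Acaa1a, a peroxisomal thiolase (0.87). The 5 nearest transcripts of the other receptors were Ahnak, Kirrel1, Spats2, Grk2 and Cemip2 for Fgfr2 (0.81 to 0.83), Crocc, Plekha6, Arsa, Whrn and Dmtn for Fgfr4 (0.86 to 0.89), and Rab11fip5, Cdc42bpb, Mbtps1, Ski and Fam120a for Fgfr1 (0.83 to 0.85). After median-of-ratios scaling the r of these transcripts was 0.49 to 0.74 for Fgfr1 and 0.58 to 0.73 for Fgfr2, against 0.78 to 0.85 for Fgfr4, 0.85 to 0.90 for Kl, 0.87 to 0.91 for Fgfr3 and 0.90 to 0.91 for Pth1r. Fgfr1 and Fgfr2 also followed the scaling factor itself, with r of 0.73 and 0.75.

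Most ligand transcripts were low or at 0 in these kidneys. Of 18 FGF genes in the table, 5 passed the filter, and none of these was called in any comparison against Vehicle. Fgf1, which binds all FGF receptors, was the most abundant, with 53.9 ± 6.46 FPKM in Combination, 52.0 ± 4.82 in Compound 1, 59.1 ± 7.32 in Enalapril and 60.6 ± 7.54 in Vehicle. Fgf9 was at 7.44 ± 1.61, 7.76 ± 1.31, 7.37 ± 0.958 and 6.71 ± 1.34 FPKM in the same order, and Fgf7, a stromal ligand of FGFR2, was at 1.56 ± 0.912, 1.94 ± 0.585, 1.24 ± 0.532 and 1.95 ± 1.01 FPKM. Fgf23 did not exceed 0.626 FPKM in Combination, 1.04 in Compound 1, 0.440 in Enalapril and 0.690 in Vehicle, and was not tested. Pth was at 0 in all 44 libraries, and Pth2r, the second PTH receptor, had a median of 0 in each group. Klb and Pthlh are not analysed here.

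Genes around the receptors were lower more often than higher with Combination and Enalapril, as were all tested genes. The list of klotho-family and FGF coreceptor genes had 10 tested genes, none of the klotho family: Lctl had a median of 0 and was not tested. Of these 10, 1 was called with Combination and 1 with Enalapril, Sdc1 in both, the syndecan-1 gene, a heparan sulfate proteoglycan. It fell by 0.70 on the log2 scale with Combination (adjusted p = 9.71e-05) and by 0.61 with Enalapril (adjusted p = 0.00144), and was under the fold threshold after median-of-ratios scaling and, with Enalapril, without animal 1001, 1002, 1003, 1007, 2001 or 2010 (-0.54 at its weakest). The list median was -0.10 with Combination and -0.17 with Enalapril, beside -0.18 and -0.15 for all genes. Of the 4 genes for proteases and inhibitors of klotho shedding, none was called. Adam10 and Adam17 encode the proteases that release klotho from the membrane. With Combination both were at -0.29 (adjusted p = 0.0490 for Adam10, 0.0068 for Adam17), under the fold threshold. With Enalapril Adam17 was at -0.235 (adjusted p = 0.0490) and Adam10 at -0.24 (adjusted p = 0.143). After median-of-ratios scaling none of these passed (adjusted p = 0.379 and 0.104 with Combination, 0.603 and 0.395 with Enalapril, Adam10 first). Adam10 averaged 11.4 ± 2.08 FPKM in Combination, 12.8 ± 1.53 in Compound 1, 11.8 ± 2.06 in Enalapril and 14.1 ± 3.01 in Vehicle, and Adam17 averaged 10.2 ± 1.44, 11.6 ± 1.83, 10.6 ± 1.45 and 12.5 ± 1.78 FPKM in the same order of groups.

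Of 25 tested genes of FGF receptor signalling and feedback, 1 was called lower with Combination, 0 were called with Compound 1 and 1 was called lower with Enalapril. By the adjusted p alone, 10 were lower with Combination and 9 with Enalapril, against 39.3% and 26.6% of all tested genes. None was higher. Dusp4, a phosphatase that switches off ERK, fell by 0.73 on the log2 scale with Combination (adjusted p = 0.000312), and Cbl, a ubiquitin ligase that removes receptors, fell by 0.75 with Enalapril (adjusted p = 0.0337); neither was called after median-of-ratios scaling, and Cbl was not called without animal 1003, 1007, 2001 or 2005 (-0.52 at its weakest). Dusp4 was at -0.54 with Enalapril (adjusted p = 0.0180) and Cbl at -0.38 with Combination (adjusted p = 0.0548). Between Combination and Enalapril neither gene passed (adjusted p = 0.706 for Dusp4, 0.572 for Cbl). The list median was -0.17 with Combination, -0.08 with Compound 1 and -0.21 with Enalapril, beside -0.18, -0.07 and -0.15 for all genes. Of 17 tested genes of PTH receptor signalling, Sgk1, a kinase of sodium transport, rose by 0.61 with Enalapril (adjusted p = 0.0027), under the fold threshold without animal 1006, 1007, 1010, 2103, 2005 or 2011 (0.55 at its weakest). No gene of that list was called with Combination or Compound 1 on the deposited scale, but Sgk1 was at 0.44 with Combination (adjusted p = 0.00789) and was called there after median-of-ratios scaling, at 0.62 (adjusted p = 0.00032).

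The list of phosphate and vitamin D genes lies in part downstream of these receptors. It also holds Egf, a growth factor gene counted below among those called higher. On the deposited scale some genes of the list were called with Combination and Enalapril, and none with Compound 1. Such a contrast of calls is not a test between treatments. Of 22 tested, 3 were called higher and 2 lower with Combination, 0 with Compound 1, and 2 higher and 2 lower with Enalapril. After median-of-ratios scaling 5 were called higher and 1 lower with Combination, 1 higher with Compound 1, and 3 higher and 0 lower with Enalapril. On the deposited scale the list medians were 0.14, 7.5e-05 and 0.19, beside -0.18, -0.07 and -0.15 for all genes. The 12 proximal tubule markers had medians of 0.27, -0.09 and 0.28, and Cubn is in both lists. Cyp24a1, which breaks down active vitamin D, ran from 47.5 to 129 FPKM in Combination (median 94.8), from 53.6 to 103 in Compound 1 (median 65.3), from 53.0 to 167 in Enalapril (median 77.5) and from 33.3 to 73.8 in Vehicle (median 47.9). It rose by 0.83 ± 0.14 on the log2 scale with Combination (adjusted p = 0.000111) and by 0.70 ± 0.17 with Enalapril (adjusted p = 0.00413), and was at 0.46 ± 0.12 with Compound 1 (adjusted p = 0.0824). The Enalapril call rests on animal 2012, without which the value was 0.57, under the fold threshold.

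Cyp27b1, which makes active vitamin D, moved the other way. It ran from 0.366 to 2.35 FPKM in Combination (median 1.11), from 0.132 to 3.31 in Compound 1 (median 1.83), from 0.496 to 3.16 in Enalapril (median 2.06) and from 1.28 to 5.34 in Vehicle (median 3.24). It fell by 1.47 ± 0.25 on the log2 scale with Combination (adjusted p = 0.000113) and by 0.87 ± 0.27 with Enalapril (adjusted p = 0.0189), where it was not called after median-of-ratios scaling (adjusted p = 0.0792), and was at -1.24 ± 0.33 with Compound 1 (adjusted p = 0.0969; 0.0417 without animal 3105, 0.0411 with the proximal tubule covariate). Vdr, the vitamin D receptor, was higher by 0.52 ± 0.09 with Combination (adjusted p = 0.000123), by 0.29 ± 0.08 with Compound 1 (adjusted p = 0.143) and by 0.33 ± 0.10 with Enalapril (adjusted p = 0.0173), each under the fold threshold. After median-of-ratios scaling it was called with Combination at 0.69. Between Enalapril and Compound 1 directly, 1 of the 22 genes was called, Slc34a2, lower with Enalapril (-0.665, adjusted p = 0.000615). Cyp27b1 was at 0.37 (adjusted p = 0.507), Cyp24a1 at 0.25 (adjusted p = 0.332) and Vdr at 0.04 (adjusted p = 0.799), none of them passing.

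**Figure D4:**
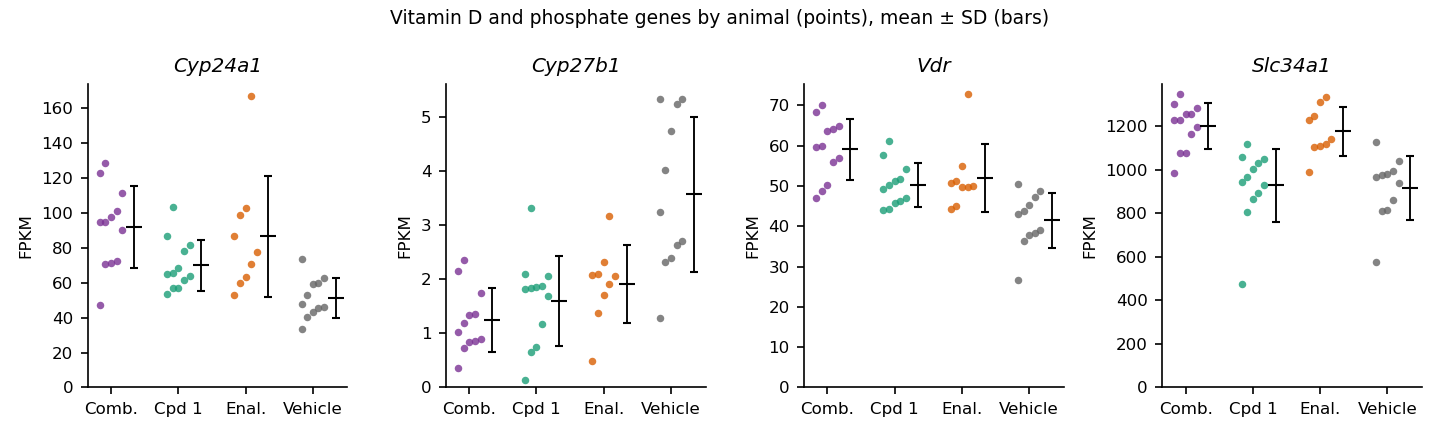
FPKM of Cyp24a1, Cyp27b1, Vdr and Slc34a1 (vertical axes, starting at 0) in every animal (points), with mean ± SD, in Combination (Comb.), Compound 1 (Cpd 1), Enalapril (Enal.) and Vehicle. Cyp24a1 is higher and Cyp27b1 lower in Combination and Enalapril than in Vehicle, with overlap, neither passed with Compound 1, and Slc34a1 averages 1201 FPKM in Combination and 1177 in Enalapril, against 919 in Vehicle.

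The main phosphate carrier of the proximal tubule, Slc34a1, averaged 1201 ± 107 FPKM in Combination, 929 ± 168 in Compound 1, 1177 ± 112 in Enalapril and 919 ± 147 in Vehicle. Its log2 fold change was 0.40 ± 0.08 with Combination (adjusted p = 0.000566) and 0.37 ± 0.09 with Enalapril (adjusted p = 0.00577), both under the fold threshold. Slc34a3, the second brush border carrier, was at 0.29 ± 0.10 with Combination (adjusted p = 0.0153) and 0.29 ± 0.09 with Enalapril (adjusted p = 0.024). Slc34a2, a phosphate carrier better known in lung and gut, fell by 0.74 with both (adjusted p = 7.36e-05 with Combination, 0.000244 with Enalapril), under the fold threshold after median-of-ratios scaling. Egf, a growth factor of the distal nephron that is in the same list, rose by 1.204 with Combination (adjusted p = 1.53e-05) and by 0.77 with Enalapril (adjusted p = 0.00218). With Compound 1 Egf was at 0.74 (adjusted p = 0.0509) and was called after median-of-ratios scaling at 0.82 (adjusted p = 0.0314). Gc, the vitamin D binding protein gene, was also called higher with Combination, at 0.62 (adjusted p = 0.00257). With Enalapril Gc was at 0.57 (adjusted p = 0.0223), under the fold threshold. Slc20a2, a ubiquitous phosphate carrier, was at 11.3 ± 1.13, 11.3 ± 1.18, 10.9 ± 0.862 and 11.3 ± 0.780 FPKM in Combination, Compound 1, Enalapril and Vehicle. The proximal tubule markers, higher in the same 2 groups, include none of these carriers. With their mean as a covariate Slc34a1 was at 0.12 with Combination (adjusted p = 0.184) and 0.02 with Enalapril (adjusted p = 0.902), and Cyp24a1 was at 0.58 with Combination (adjusted p = 0.0346) and 0.32 with Enalapril (adjusted p = 0.419).

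Distal calcium transport, on which klotho and PTH also act, was followed in 10 genes. Of these, 2 were called lower with Combination, 0 were called with Compound 1, and 1 was called higher and 2 lower with Enalapril. Trpv5, the apical calcium channel that klotho is known to hold at the membrane, fell by 0.73 on the log2 scale with Combination (adjusted p = 0.000229) and by 0.77 with Enalapril (adjusted p = 0.000739); the Combination value was under the fold threshold after median-of-ratios scaling (-0.56). Trpv6, its close relative, fell by 1.496 with Combination (adjusted p = 0.000185) and by 1.62 with Enalapril (adjusted p = 0.000162). S100g, the calbindin-D9k gene, rose by 0.61 with Enalapril (adjusted p = 0.00897), under the fold threshold without animal 1004, 1007, 2009, 2011 or 2012 (0.52 at its weakest). With Combination S100g was at 0.47 (adjusted p = 0.0432) and was called after median-of-ratios scaling, at 0.64 (adjusted p = 0.0144). Between Enalapril and Compound 1 directly, these 3 genes were called (0.326% of tested genes called higher, 1.89% lower). Trpv5 was at -0.94 (adjusted p = 9.75e-05), Trpv6 at -1.73 (adjusted p = 0.000117) and S100g at 0.65 (adjusted p = 0.0301). With the proximal tubule covariate Trpv5 was at -0.47 with Combination (adjusted p = 0.0562) and -0.55 with Enalapril (adjusted p = 0.177), and Trpv6 at -0.77 with Combination (adjusted p = 0.0704) and -0.86 with Enalapril (adjusted p = 0.132). Among all tested genes that covariate left 25 called higher and 254 lower with Combination, and 1 higher and 0 lower with Enalapril. Calb1, the calbindin-D28k gene, averaged 122 ± 23.1 FPKM in Combination, 134 ± 20.7 in Compound 1, 109.6 ± 15.4 in Enalapril and 109 ± 32.4 in Vehicle.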

How the data were processed

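Kidney RNA of 44 rats was compared between 4 groups, taken from the labels. The deposited values are FPKM per gene, which the authors computed on build rn6 (submitters' processing notes); aligner and counter: not given in the sources used here. FPKM are not counts, so log2(FPKM + 0.1) was the scale tested, by limma's trend method (limma 3.58.1, R 4.3.3). Genes needed an FPKM over 1 in 9 or more animals, which 13482 met, and Benjamini-Hochberg adjustment ran over all of these. Calls needed both an adjusted p below 0.05 and a fold beyond 1.5 or 0.66. Comparisons against Vehicle used the 2 groups compared, and the other comparisons and the interaction used all 4. The study itself tested raw counts with DESeq2, which were not used here. The test was checked on simulated data.

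FPKM hold no read totals, so no counting interval is given; relative depth was read from ratios of low values. Median-of-ratios scaling and quantile normalization served as alternatives, because FPKM of all genes shift when a few abundant transcripts change. Other alternatives were pseudocounts of 1 and 0.01, no filter or an FPKM minimum of 5, no fold threshold, sample weights, marker means as covariates, a different set of groups in the model, and dropping each animal in turn, 5 animals with another number series (2103 and 3102 to 3105), 6 animals listed apart (2005, 2011, 2012, 3103, 3011 and 4005) or, added after seeing the data, Vehicle animals 1003 and 1004.

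The members and lists were chosen with earlier results of these data known. Named genes were the 6 members, a set of ligands and targets whatever their values, up to 4 called genes of each list in each comparison against Vehicle, and the 5 transcripts most like each member. Gc was named in addition, as the remaining called gene of its list. Where a symbol stood on more than 1 entry, the entry with the highest mean was used. Promoter windows came from RefSeq and bear on no test.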

Additional observations from a re-analysis of the deposited data

Results flagged for a closer look

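Enalapril animal 2012 lay far above the other 8 animals of its group in Cyp24a1 and Vdr. Its Cyp24a1 level was 166.9 FPKM, with the next animal at 103 FPKM, and its Vdr level was 72.9 FPKM, with the next at 55.1 FPKM. Of 11 genes examined this way in the Enalapril group (the 6 receptors and klotho genes, and Slc34a1, Slc34a3, Cyp24a1, Cyp27b1 and Vdr), these 2 stood out, and chance alone gives about 1 in 20 groups. Groups of more than 10 animals were not examined. The interaction of Enalapril and Compound 1, a test of departure from additive effects, passed for none of the 6 receptor and klotho genes.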

How the results depend on the processing

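The number of the 6 genes called was 0 in each of the 7 comparisons under every alternative run except the removal of the fold threshold, which gave 3 with Combination and 2 with Enalapril against Vehicle, 4 for Combination against Compound 1 and 1 for Enalapril against Compound 1. Of 445 single values of the 6 genes under the alternatives, 37 changed sign, most of them near 0. After median-of-ratios scaling Fgfr1 was at 0.12 with Combination, 0.027 with Compound 1 and 0.028 with Enalapril, Fgfr4 at 0.11 with Combination and 0.11 with Enalapril, and Fgfr2 at 0.035 and Fgfr3 at 0.069 with Compound 1. Quantile normalization gave 0.044 for Fgfr1 and 0.067 for Fgfr4 with Combination, 0.0021, 0.046 and 0.077 for Fgfr1, Fgfr2 and Fgfr3 with Compound 1, and 0.082 for Fgfr4 with Enalapril. With the proximal tubule covariate Kl was at -0.021 and Pth1r at -0.031 with Combination, Kl at -0.11, Pth1r at -0.19 and Fgfr3 at 0.014 with Enalapril, Pth1r at -0.079 for Combination against Compound 1, and Pth1r at -0.15 and Fgfr3 at 0.0052 for Enalapril against Compound 1. With the distal convoluted tubule covariate Kl was at -0.054 and Pth1r at -0.044 with Compound 1, and Fgfr4 at 0.022 with Enalapril. For Compound 1, Fgfr2, Fgfr3 and Pth1r were at 0.042, 0.10 and -0.041 with sample weights, at 0.016, 0.038 and -0.012 without the 6 animals listed apart, and at 0.060, 0.13 and -0.085 without Vehicle animals 1003 and 1004, and Pth1r was at -0.0029 without animals 2103 and 3102 to 3105. Leaving out 1 animal gave ranges of -0.082 to 0.015 for Fgfr2, -0.075 to 0.082 for Fgfr3 and -0.038 to 0.079 for Pth1r with Compound 1. The cause was not tested. Without animals 1003 and 1004, Fgfr3 was at -0.26 with both Combination (adjusted p = 0.0790) and Enalapril (adjusted p = 0.115). FPKM give no read totals, so the part of counting error in the low genes is unknown. No paired analysis was possible because each animal belongs to 1 group and the animal numbers are not shared between groups.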
